A study of Mus musculus with 4 samples.

Results

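The D cyclins, their kinase Cdk4 and the brakes on them were read in mouse heart RNA on days 7 and 30 after a newborn injection. The 10 genes chosen by name were the D cyclin genes Ccnd1, Ccnd2 and Ccnd3, Cdk4, the inhibitor genes Cdkn1a, Cdkn1b and Cdkn2c, the pocket protein genes Rb1 and Rbl2, and Meis1. Of these, 9 had a probe set with that symbol, out of 19505 named genes on the array, and each of the 9 had 1 probe set. Ccnd1 was not analysed here. All animals were outbred ICR (Jcl:ICR) mice given, at postnatal day 1, either PBS or a viral vector preparation carrying Tbx6, a T-box transcription factor of the early mesoderm. The hearts were taken 7 or 30 days later. There was 1 array for each of the 4 groups, which were PBS at day 7, Tbx6 at day 7, PBS at day 30 and Tbx6 at day 30. The labels describe the injection as given beneath the skin of the back and, in other fields, as introduction into the heart. The promoter that drove Tbx6, the cells it reached and the number of hearts in each RNA sample were not stated in those sources, and PBS is not a vector without Tbx6. With a single array in each group, differences between injections on 1 day have no replicate check.

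A cell passes from G1 into DNA synthesis when D cyclins bind Cdk4 or Cdk6 and the complex phosphorylates the retinoblastoma family of pocket proteins. Phosphorylation frees E2F transcription factors, which then switch on the genes of DNA synthesis. The Cdkn2 proteins block Cdk4 and Cdk6 directly, while p21 (Cdkn1a) and p27 (Cdkn1b) block Cdk2 complexes and can also help to assemble D cyclin complexes. Mouse cardiomyocytes stop dividing soon after birth, and Meis1 is a homeodomain transcription factor known to promote that exit. Other heart cells can still divide.

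Values are deposited log2 expression values. Background probe sets, which match no transcript, reached 5.77 to 6.05 as their highest value per array, and a reading at or below that is called at background. The median of all genes was 5.30 to 5.34 on each array. A probe set's level says nothing of its level relative to another gene. The cardiomyocyte markers were high on every array, with Myh6 at 19.7 to 19.9 and Actn2 at 18.92 to 18.94, and the highest value on each array was 19.9. One array stood apart: the airway genes Scgb1a1 and Scgb3a1 read 12.89 and 10.80 on the PBS array of day 7 and were at background on the other arrays, and Ucp1 of brown fat read 11.92 there against 5.69 to 8.34 elsewhere. The differences of the D cyclins and brakes are therefore given for the Tbx6 arrays alone as well. The Tbx6 pair also differed in fat markers, with Adipoq at 6.08 (day 7) and 9.83 (day 30) and Cidec at 6.13 and 7.88. Fabp4 went the other way, from 17.06 to 16.70.

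The first comparison asked how these genes differed between day 30 and day 7, with the pair of injections as the only replication of each day. Cdkn1a, Ccnd3 and Cdk4 fell between the days. None of the 9 rose, and the test left 6 uncalled, among them Rb1, Rbl2, Meis1 and Ccnd2. By limma's additive model of day and injection, with Benjamini-Hochberg adjustment over 9753 genes, 12.1% of all tested genes fell and 14.2% rose at an adjusted p under 0.05. In either direction the share was 26.3%. The 3 genes that fell out of 9 stand beside that 12.1%. Cdkn2c was at background on every array, so its differences are not used. Over the other 8 genes the median change was -0.47, against -0.02 over all tested genes. In 4 of these 8 genes both day 30 arrays lay below both day 7 arrays, in 3 they lay above, and in Ccnd2 they overlapped. Across all tested genes 33.5% were separated downward and 32.7% upward in this way, so separation of the arrays alone is common. The model leaves 1 residual degree of freedom and borrows nearly all of its variance from other genes, and a day holds whatever else differed between the hearts sampled at the different ages.

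**Figure D1:**
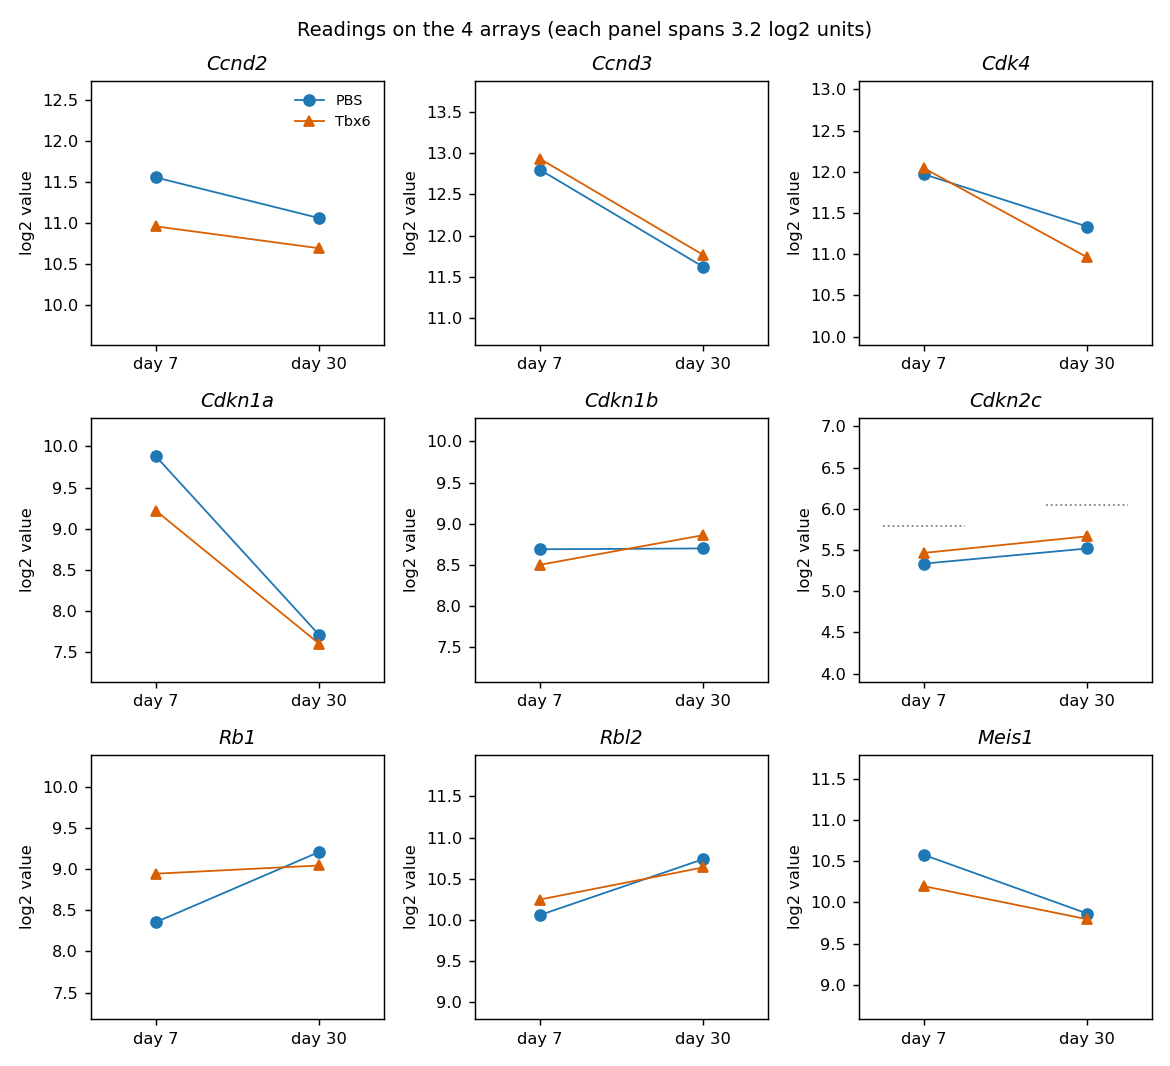
Log2 reading of the 9 genes on the 4 arrays, by day, with PBS as circles and Tbx6 as triangles. The lines join the arrays of 1 injection, each panel has its own range of the same width, and dotted lines mark the higher of that day's highest background readings. Ccnd3, Cdk4 and Cdkn1a are lower on both day 30 arrays, and all 4 readings of Cdkn2c lie under the background lines.

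Of the D cyclins, Ccnd3 fell and Ccnd2 was not called. Ccnd3 (probe set TC1700000917.mm.2), which encodes cyclin D3, gave 12.80 (PBS) and 12.93 (Tbx6) on the day 7 arrays and 11.62 (PBS) and 11.77 (Tbx6) on those of day 30. The day 30 readings were well apart from those of day 7, and both injections gave nearly the same drop. Ccnd3 fell by 1.17 on the log2 scale (SE 0.24, adjusted p = 0.00936), which is 2.25-fold. The difference was -1.18 between the PBS arrays and -1.16 between the Tbx6 arrays. Ccnd2 (TC0600003169.mm.2), which encodes cyclin D2, gave 11.55 (PBS) and 10.96 (Tbx6) on the day 7 arrays and 11.06 and 10.70 on those of day 30. Its PBS array of day 30 was above its Tbx6 array of day 7, so the days overlapped. The change was -0.38 (95% interval -0.94 to 0.18, adjusted p = 0.287), which leaves a fall of nearly 1 log2 unit or a small rise possible. That Ccnd3 passed the test and Ccnd2 did not is no test of a difference between them.

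Cdk4 (TC1000001546.mm.2), the catalytic partner of the D cyclins, gave 11.97 (PBS) and 12.04 (Tbx6) on the day 7 arrays and 11.33 (PBS) and 10.96 (Tbx6) on those of day 30. The day 30 arrays were both lower, and the Tbx6 array was the lowest of the 4. Cdk4 fell by 0.86 (SE 0.25, adjusted p = 0.0382), which is 1.81-fold, with -0.63 between the PBS arrays and -1.08 between the Tbx6 arrays. It is the weakest of the 3 calls and was lost when all 19505 genes were tested without the filter on low values (adjusted p = 0.0709).

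Among the inhibitors Cdkn1a changed most and Cdkn1b was not called. Cdkn1a (TC1700000496.mm.2), which encodes p21, gave 9.88 (PBS) and 9.22 (Tbx6) on the day 7 arrays and 7.71 (PBS) and 7.61 (Tbx6) on those of day 30. Both readings of day 7 were more than 1 log2 unit above both of day 30, and the PBS array of day 7 was the highest. Cdkn1a fell by 1.89 (SE 0.26, adjusted p = 0.00139), a 3.70-fold drop, and 1.94% of tested genes had a lower change. Between the Tbx6 arrays alone, without the PBS array that carried airway genes, the difference was -1.61, and between the PBS arrays it was -2.16. Cdkn1b (TC0600001595.mm.2), which encodes p27, read 8.69 and 8.50 at day 7 and 8.70 and 8.86 at day 30. Its PBS readings hardly differed (0.01), its Tbx6 readings differed by 0.36, and the change was 0.18 (95% interval -0.38 to 0.75, adjusted p = 0.619). Cdkn2c (TC0400003271.mm.2), which encodes the Cdk4 and Cdk6 inhibitor p18, read 5.34 and 5.47 at day 7 and 5.52 and 5.67 at day 30, each under that array's highest background probe set.

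The promoters of the 3 genes that fell are shown because they fell together, and to set out which regulatory motifs they do and do not share. The windows are the 250 bases upstream of each RefSeq start (build GRCm38.p6), 5′ to 3′ on the gene's strand. RefSeq gives 2 starts for Ccnd3 and for Cdkn1a, and the probe sets do not tell them apart here. Capitals mark matches, on either strand, to the E2F motif TTTNNCGC, the CHR motif TTTGAA of genes held by the DREAM complex, the E-box CACGTG bound by Myc and its relatives, the GC box GGGCGG, and the p53 site, searched as 1 copy of its repeated unit. No match overlapped another in these windows.
Ccnd3, start 1, chr17:47504801-47505050, plus strand: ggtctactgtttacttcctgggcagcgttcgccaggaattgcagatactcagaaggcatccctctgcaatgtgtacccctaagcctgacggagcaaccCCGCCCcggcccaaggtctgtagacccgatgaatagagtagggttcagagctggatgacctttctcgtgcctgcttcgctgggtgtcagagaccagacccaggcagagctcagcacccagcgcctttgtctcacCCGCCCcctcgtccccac
Ccnd3, start 2, chr17:47593217-47593466, plus strand: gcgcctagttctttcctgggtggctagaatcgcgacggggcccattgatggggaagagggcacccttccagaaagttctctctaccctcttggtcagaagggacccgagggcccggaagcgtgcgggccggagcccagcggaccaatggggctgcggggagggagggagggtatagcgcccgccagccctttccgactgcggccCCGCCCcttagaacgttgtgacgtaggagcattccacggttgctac
Cdk4, chr10:127063285-127063534, plus strand: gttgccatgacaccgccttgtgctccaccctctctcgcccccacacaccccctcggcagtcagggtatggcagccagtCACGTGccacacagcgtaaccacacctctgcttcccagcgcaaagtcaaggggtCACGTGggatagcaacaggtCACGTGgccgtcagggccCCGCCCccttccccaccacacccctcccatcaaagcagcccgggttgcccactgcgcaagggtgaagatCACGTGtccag
Cdkn1a, start 1, chr17:29090729-29090978, plus strand: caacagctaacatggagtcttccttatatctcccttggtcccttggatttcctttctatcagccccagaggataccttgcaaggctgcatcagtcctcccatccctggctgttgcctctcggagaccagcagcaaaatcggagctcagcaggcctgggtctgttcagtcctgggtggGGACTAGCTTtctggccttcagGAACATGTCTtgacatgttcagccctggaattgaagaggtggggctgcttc
Cdkn1a, start 2, chr17:29093519-29093768, plus strand: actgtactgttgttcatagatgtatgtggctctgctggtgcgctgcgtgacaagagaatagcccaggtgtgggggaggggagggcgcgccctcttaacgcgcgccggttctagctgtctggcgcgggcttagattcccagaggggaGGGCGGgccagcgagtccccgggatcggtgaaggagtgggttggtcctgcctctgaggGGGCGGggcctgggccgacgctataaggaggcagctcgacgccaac
The Cdk4 window held 4 E-boxes, which began 172, 118, 98 and 11 bases before the start. An E-box was present in 6.02% of 32851 such windows in the RefSeq table, and 4 or more in 0.0213% (7 windows). The upstream Cdkn1a window held 2 matches to the p53 unit, 73 and 51 bases before that start. Each match is a single copy of the repeated unit, and the search allowed no mismatch. The bases directly after the copy at 51, tgacatgttc, would match but for their first base, and so are not in capitals. Whether the copy at 51 forms a whole p53 site with them, or with the copy at 73, was not tested. At least 1 exact copy was present in 7.13% of all windows and at least 2 in 0.259%. GC boxes were in both Ccnd3 windows, the Cdk4 window and the downstream Cdkn1a window, against 32.7% of all windows. Promoter windows were given for 7 of the 9 genes, 10 windows in all. Of the 10, none held the E2F motif (4.28% of all windows) and 1, that of Rbl2, held the CHR motif (16% of all windows). The GC box was in 6 of the 10, among them the Cdkn1b window and 1 of Cdkn2c, genes not called between days. It is therefore not particular to the genes that fell. A match is a run of letters and does not show that a factor binds there, and the multiple matches were counted, and the p53 site added, after the sequences had been seen.

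The pocket protein genes were higher at day 30, but neither passed the test. Rbl2 (TC0800001055.mm.2), which encodes p130, the pocket protein of resting cells, gave 10.06 (PBS) and 10.25 (Tbx6) on the day 7 arrays and 10.74 (PBS) and 10.64 (Tbx6) on those of day 30. The 2 days did not overlap, and the change was 0.53 (95% interval -0.03 to 1.10, adjusted p = 0.146). Rb1 (TC1400002383.mm.2), which encodes the retinoblastoma protein, read 8.36 and 8.94 at day 7 and 9.21 and 9.04 at day 30. Its PBS array of day 7 was the low one. The difference was 0.85 between the PBS arrays and 0.10 between the Tbx6 arrays, so the change of 0.48 (95% interval -0.15 to 1.10, adjusted p = 0.236) lay mostly between the PBS arrays.

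Meis1 (TC1100002269.mm.2) gave 10.58 (PBS) and 10.20 (Tbx6) on the day 7 arrays and 9.87 (PBS) and 9.80 (Tbx6) on those of day 30. Both day 30 readings were lower than both of day 7, by -0.71 between the PBS arrays and -0.40 between the Tbx6 arrays. The change of -0.56 (95% interval -1.12 to 0.01, adjusted p = 0.132) did not pass the test.

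**Figure D2:**
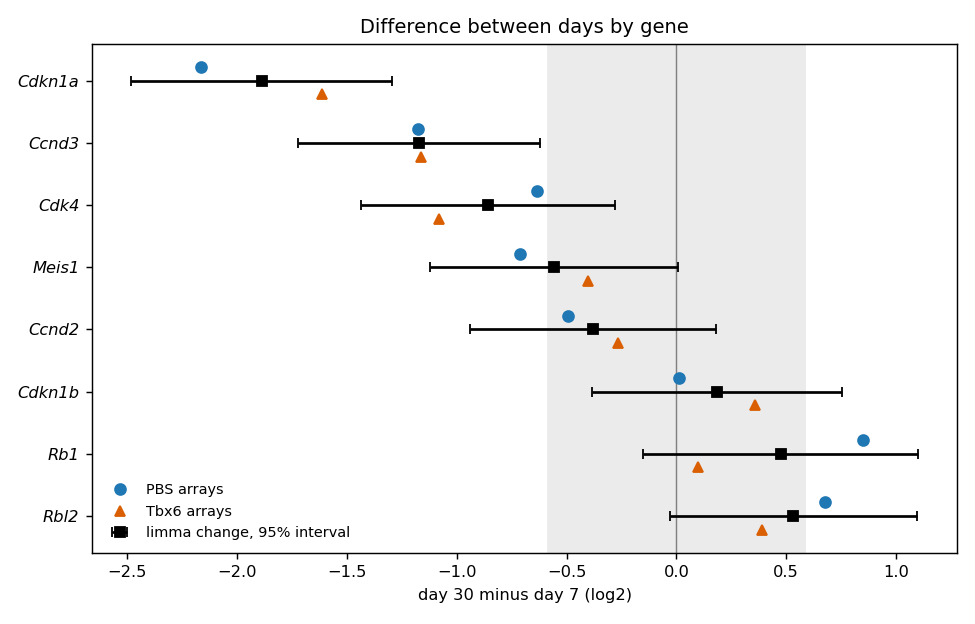
Day 30 minus day 7 on the log2 scale for the 8 genes above background, ordered by the limma change (squares, with 95% intervals), with the PBS pair (circles) and the Tbx6 pair (triangles) shown apart. The grey band spans differences under 1.5-fold. Cdkn1a, Ccnd3 and Cdk4 have intervals below 0, and Rb1 has its pairs furthest apart, at 0.85 and 0.10.

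The 8 genes above background thus had day differences of the same sign after either injection, where 24.6% of all tested genes had opposite signs. The shared sign is weakly held in Cdkn1b, with a PBS difference of 0.01, and in Rb1, with a Tbx6 difference of 0.10. The largest gaps between the pairs were in Rb1 (-0.75, Tbx6 pair minus PBS pair), Cdkn1a (0.55) and Cdk4 (-0.45), and the smallest was in Ccnd3 (0.01). Between the PBS arrays 4 genes were at least 1.5-fold lower at day 30 (Ccnd3, Cdk4, Cdkn1a and Meis1, against 21.5% of tested genes) and 2 were higher (Rb1 and Rbl2, against 21.9%). Between the Tbx6 arrays 3 were lower (Ccnd3, Cdk4 and Cdkn1a, against 21.2%) and 0 were higher (against 22.9%). In either direction the shares of all tested genes were 43.4% and 44.1%.

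The genes around this core were read from lists chosen by function. The counts of each list stand beside the 12.1% of all tested genes that fell and the 14.2% that rose. A gene that is at background on 1 day passes the filter through the day on which it is high, so the counts describe the genes tested and do not stand for a whole list. Of 16 other G1 and S cyclins, kinases and activators, 11 passed the filter on low values. Of these 4 fell, none rose and 7 were not called, with a median change of -0.58. Cdk6, the other kinase of D cyclins, read 12.16 and 11.52 at day 7 and 10.41 and 10.68 at day 30 and fell by 1.30 (SE 0.29, adjusted p = 0.0125), with -1.75 between the PBS arrays and -0.84 between the Tbx6 arrays. Cdk2, the kinase that p21 and p27 block, fell by 1.12 (adjusted p = 0.014). Ccna2, the S phase cyclin, and Cks2, a kinase subunit, were at background at day 30 and fell by at least 2.72 and at least 0.40. Their adjusted p by limma (2.38e-05 and 0.00393) belong to the deposited changes of -4.88 and -1.46, and the bounds were not tested.

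Of 5 other inhibitor genes only Cdkn2d, which encodes p19 of the same family as p18, passed the filter. It read 6.63 and 6.90 at day 7 and 6.38 and 6.69 at day 30 and was not called (-0.23, adjusted p = 0.521). Cdkn1c, Cdkn2a and Cdkn2b were at background on every array, so no direction can be given for them. Cdkn3, named after its values had been seen, did not pass the filter and was not tested. It read 6.11 and 5.93 at day 7 and was at background on both day 30 arrays, a fall of at least 0.08. Cdkn1b and Cdkn2d were therefore the inhibitors read above background on every array beside Cdkn1a.

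Pocket protein, E2F and DREAM partners went both ways. Of 18, 15 passed the filter, with 5 fallen, 2 risen, 8 not called and a median of -0.60. Rbl1 encodes p107, the pocket protein of dividing cells. It read 7.38 and 6.96 at day 7 and 5.59 (at background) and 6.01 at day 30. The fall was at least 1.14, and the adjusted p of 0.00924 belongs to the deposited change of -1.37. Between the Tbx6 arrays, where both readings were above background, the difference was -0.95. That is the opposite sign to its relatives Rb1 and Rbl2, whose changes were not called. E2f8, a repressor E2F, was at background on both day 30 arrays and fell by at least 0.58. E2f7, its close relative, read 6.93 (PBS) and 5.99 (Tbx6) at day 7 and was at background on both day 30 arrays, a mean fall of at least 0.53 that is set mainly by the PBS array of day 7. The call of E2f7 was lost after quantile normalisation (adjusted p = 0.0559) and without the filter (adjusted p = 0.0568). Tfdp2, an E2F dimer partner, rose by 1.76 (SE 0.26, adjusted p = 0.00182). E2f1 was at background on every array.

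Of the genes that E2F switches on for S phase, 16 of 18 were measured and 12 passed the filter, with 9 fallen (against 12.1% of all tested genes), none risen and a median of -1.30. Of the 9, 4 were at background on both day 30 arrays and 5 were above background on every array. The DNA helicase gene Mcm6 fell by 1.56, Mcm2 by at least 1.61, the ribonucleotide reductase gene Rrm2 by at least 0.95 and Uhrf1 by at least 1.06. Of the proliferation markers 7 of 8 were measured, and the 4 that passed the filter fell (against 12.1% of all tested genes), 3 of them with readings at background at day 30. Mki67 was 10.78 and 11.04 at day 7 and 5.29 (at background) and 6.60 at day 30, a fall of at least 4.58. Top2a, above background on every array, fell by 1.76, with -2.14 between the PBS arrays and -1.38 between the Tbx6 arrays. Ccnb2 fell by at least 2.70 and Plk1 by at least 2.02. Passing the filter depends on the mean over all arrays, and 4 further S phase genes and 3 further proliferation markers did not pass it.

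Among 10 measured Meis1 partners and relatives, 6 passed the filter, 2 fell, 1 rose and 3 were not called, with a median of -0.38. Pbx3, a dimer partner, fell by 1.20 (SE 0.26, adjusted p = 0.011) and Tgif2 by at least 0.87, while Pknox2 rose by at least 0.74, a call lost when injection was left out of the model (adjusted p = 0.0544). Meis2 read 10.59, 10.42, 9.92 and 10.83 on the arrays of PBS day 7, Tbx6 day 7, PBS day 30 and Tbx6 day 30, and its pairs went in opposite directions (adjusted p = 0.783). Hoxb13, a partner of Meis1 in the heart named here after its values had been seen, was at background on every array.

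Cdkn1a is a well-known p53 target, so the other targets were read beside it. Of 15 measured members 10 passed the filter, 2 fell (against 12.1% of all tested genes), 3 rose (against 14.2%) and 5 were not called, with a median of 0.04. Plk2 fell by 2.49 (adjusted p = 0.000365). Zmat3, named after its values had been seen, fell by 0.996 (adjusted p = 0.0237). Sesn1 and Ccng1 rose by 2.57 (adjusted p = 0.000255) and 2.24 (adjusted p = 0.00049). Gadd45a read 5.74 (at background) and 5.81 at day 7 and 6.45 and 7.32 at day 30, a mean rise of at least 1.08 (adjusted p = 0.0204), with the Tbx6 array of day 30 the highest. Mdm2 was not called (0.49, adjusted p = 0.166). Cdkn1a, which is not counted in this list, had the sign of Plk2 and Zmat3 and the opposite sign to Sesn1, Ccng1 and Gadd45a.

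Of 13 measured regulators of D cyclins and inhibitors 12 passed the filter, none fell, 3 rose and 9 were not called. Klf15, a factor of fasting metabolism, rose by at least 1.86, and Fbxo31, part of a ubiquitin ligase for cyclin D1, rose by 1.45 (adjusted p = 0.0039). Foxo3, which can switch on Cdkn1b, was at background on 3 arrays and read 6.35 after Tbx6 at day 30, and its call was lost without the filter (adjusted p = 0.0507) and without the injection term (adjusted p = 0.0532). Myc read 7.45 on the PBS array of day 7 and 5.78, 5.93 and 5.68 on the Tbx6 array of day 7, the PBS array of day 30 and the Tbx6 array of day 30. Both day 30 readings were at background, and the gene was not called (adjusted p = 0.118).

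**Figure D3:**
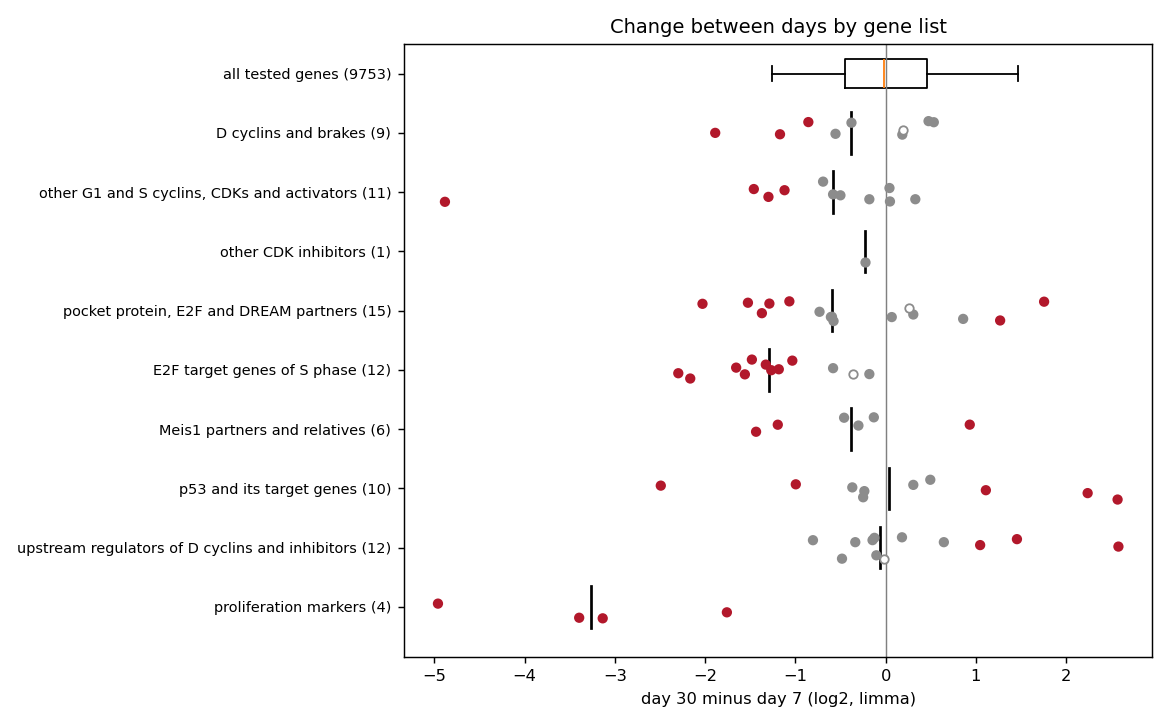
Limma change between days (log2) of every gene past the filter in each list, with the number of genes in brackets. Red points passed an adjusted p of 0.05, grey ones did not, open points were at background on every array, the bars are medians, and the box shows all 9753 tested genes (quartiles, whiskers at the 5th and 95th percentiles). S phase genes and proliferation markers lie to the left of 0, while the p53 targets lie on both sides, as do the D cyclins and brakes.

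These are whole hearts, in which fewer cells of a type and less RNA per cell cannot be told apart. Markers of cell types moved between the days too. Their counts stand beside the 12.1% of all tested genes that fell and the 14.2% that rose. Of 6 measured fibroblast markers 5 fell, with a median change of -3.15 over the 6, and Postn fell by 4.57. Their summed level (log2) was 19.12 to 19.13 at day 7 and 18.42 to 18.43 at day 30. Dcn, the brightest of them, read 18.34 to 18.47 and was not called (-0.08). Col3a1, the next brightest at day 7, read 17.19 to 17.20 then and 13.84 to 13.91 at day 30. Endothelial markers fell in 2 of 6 (Kdr by 1.03, Cdh5 by 0.91), with a summed level of 16.59 to 16.70 and then 15.70 to 15.81. Macrophage markers rose in 4 of 5, from a summed level of 11.36 to 11.46 to one of 13.24 to 13.57. These summed levels are set mostly by the brightest probe sets and do not measure how many cells of a type were present. None of 7 cardiomyocyte markers was called, but Myh6, Tnnt2 and Myl2 read at or near the highest value of the arrays, where little room is left for a rise. Of the less bright ones, Ttn read 17.34 and 17.06 at day 7 and 17.66 and 17.52 at day 30, and Ryr2 15.98 and 16.37, and then 16.39 and 16.37. None of 6 smooth muscle and pericyte markers was called, while the 4 measured lymphocyte markers and the 2 measured neuronal ones were at background on every array. The part of these cell types in the falls of Cdkn1a, Ccnd3 and Cdk4 was not tested.

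The second comparison set Tbx6 against PBS. By limma's additive model no gene of the 9 was called for injection (0 of 9753 genes passed, 0% of those tested). At an unadjusted p under 0.05 there were 421 genes (4.32%), none of them among the 9. The largest change was that of Ccnd2, at -0.48 (95% interval -1.04 to 0.08), with Tbx6 below PBS by -0.59 at day 7 and -0.37 at day 30. Cdkn1a followed at -0.38 (95% interval -0.98 to 0.21). The intervals of the other 6 genes above background also included 0. That of Cdkn1b (-0.58 to 0.56) lay just within 1.5-fold, and the others reached past it on 1 side, so the test does not show that the injections acted alike.

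At day 7, differences of at least 1.5-fold were found in 3 of the 9 genes, against 15.6% of all tested genes. Tbx6 minus PBS was -0.66 in Cdkn1a and -0.59 in Ccnd2 (2 genes lower, against 8.41%), and 0.59 in Rb1 (1 gene higher, against 7.23%). Ccnd2 and Rb1 lie just past the 1.5-fold line of 0.58, and Ccnd2 came inside it after quantile normalisation (-0.57) and after centring each array on its median (-0.56). Of the 4 readings of Cdkn1a and of Ccnd2, the PBS one of day 7 was the highest, and of those of Rb1 it was the lowest. This is the array with the airway and brown fat genes. On it 3 of 4 tested adipocyte markers were at least 1.5-fold above the Tbx6 array, and Alas2, the 1 measured erythroid marker, read 12.52 against 10.73. The part of these in the 3 differences was not tested.

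At day 30, none of the 9 genes differed by 1.5-fold, against 13.2% of all tested genes (7.13% higher and 6.06% lower). The largest differences were -0.37 in Cdk4 and -0.37 in Ccnd2, and the others lay between -0.16 (Rb1) and 0.16 (Cdkn1b). The median size of the difference over the 8 genes above background was 0.28 at day 7 and 0.15 at day 30, against 0.26 and 0.24 over all tested genes. On this day 3 of 4 tested adipocyte markers were at least 1.5-fold higher after Tbx6, the reverse of day 7. Ccnd2, Cdkn1a and Meis1 were lower after Tbx6 on both days, Ccnd3 was slightly higher on both (0.13 and 0.15), and the other 4 genes above background changed sign. Of all tested genes 50.7% changed sign.

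**Figure D4:**
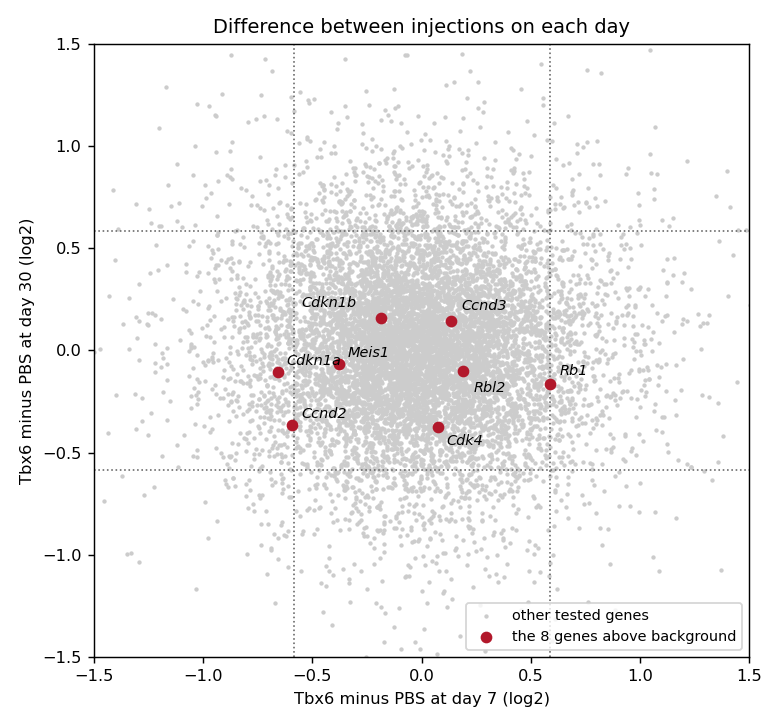
Tbx6 minus PBS (log2) at day 7 on the horizontal axis and at day 30 on the vertical axis, for the 8 genes above background (red) and the other tested genes (grey, 80 of the tested genes lie outside the axes). Dotted lines mark 1.5-fold. Cdkn1a, Ccnd2 and Rb1 reach the line at day 7, and none of the 8 reaches it at day 30.

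Profiles over the 4 arrays were compared by the distance between log2 readings centred on each gene's own mean. Within the set, Rb1 and Rbl2 were the nearest pair above background (0.29), followed by Ccnd2 with Meis1 (0.31), Cdkn1b with Rbl2 (0.48) and Ccnd3 with Cdk4 (0.48). Nearest to Cdkn1a among all tested genes were Rcan1, an inhibitor of calcineurin (0.06), Akap12, a scaffold of protein kinase A (0.16), and Top2a, the topoisomerase of dividing cells (0.17). Rcan1 read 12.02 and 11.36 at day 7 and 9.80 and 9.77 at day 30, and so shared the high PBS reading of day 7. Nearest to Ccnd3 were Mprip (0.05), which binds myosin phosphatase, the chromatin protein gene Hmgb1 (0.07) and the kinase gene Mapk7 (0.08). For Cdk4 they were the splicing factor gene Sf3a3 (0.05), the zinc finger gene Zfp326 (0.06) and the exonuclease gene Eri2 (0.08), and for Meis1 Rhobtb3 (0.02), Arrdc1 (0.03) and Abracl (0.05). With 4 arrays and 9753 genes, close profiles are easy to find, and these are a description of these arrays.

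**Figure D5:**
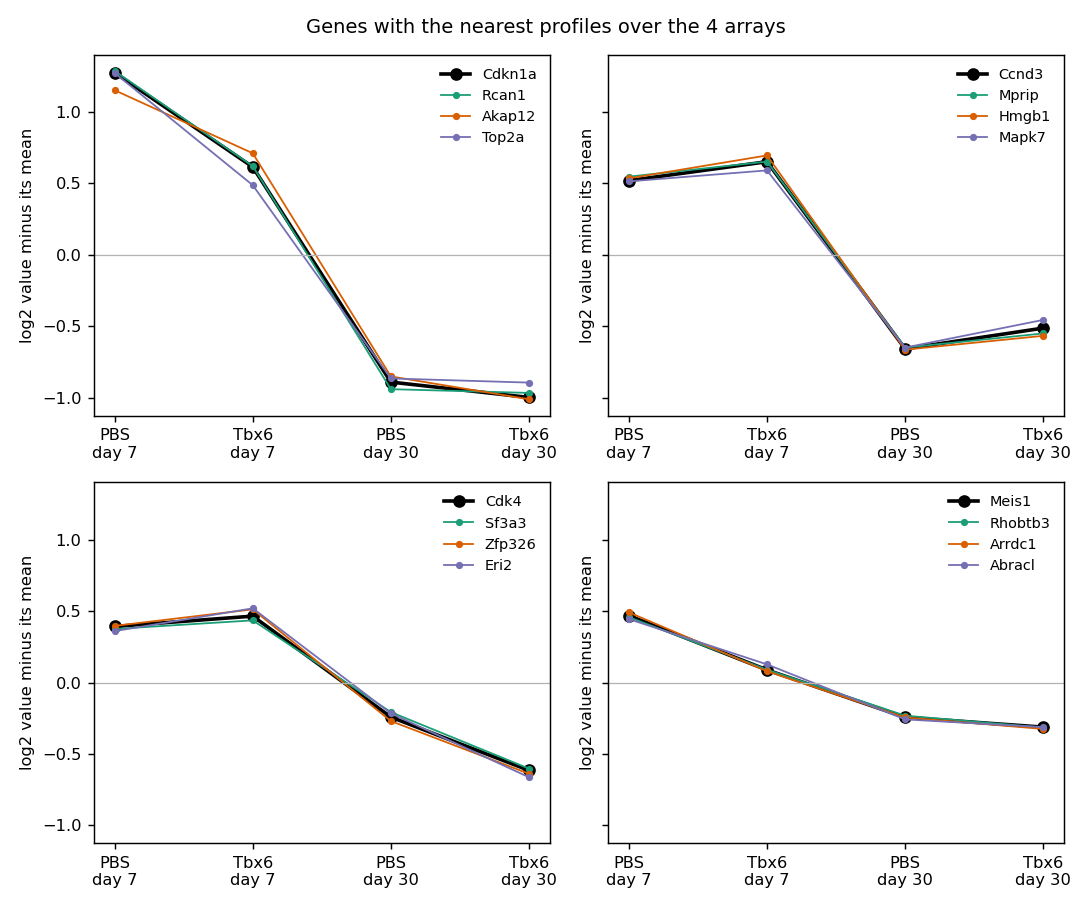
Log2 readings minus the gene's own mean on the 4 arrays for Cdkn1a, Ccnd3, Cdk4 and Meis1 (black) and, in each panel, the 3 tested genes with the nearest profiles (colours). Cdkn1a and Rcan1 are highest on the PBS array of day 7 and nearly level on both arrays of day 30.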

How the data were processed

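The 4 arrays are mouse Clariom S arrays of 1 colour. The authors made the deposited log2 values with SST-RMA, a background correction and normalisation across arrays (per the labels), run in Affymetrix Expression Console 1.4 (per the submitters' processing notes). Base 2 is read from their range and from RMA's usual output. The table held 28846 probe sets, of which 19572 had 1 gene symbol in the platform annotation, 0 had several, 6640 were controls and 2634 transcript probe sets are unnamed here. All 19572 Entrez identifiers matched a RefSeq gene table (GRCm38.p6) with the same symbol. For the 55 genes with several probe sets the one with the highest mean was kept, which left 19505 genes. Tests ran on 9753 genes, those with a mean reading no lower than the median gene's (5.30).

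All 4 arrays entered 1 additive model of injection and day in R 4.3.3, using lmFit and eBayes of limma 3.58.1. Tests were two-sided, p-values were adjusted by Benjamini and Hochberg's method, and the threshold was 0.05. It was tested on simulated data. Differences between single arrays have no test, and the size rule was 1.5-fold. A change with readings at background on the lower day alone is given as at least the change left after raising them to the highest of the 23 background probe sets. Calls and p-values of such genes come from the fit to the deposited readings, and the bound itself was not tested. With 1 array in each group, SEs and p-values do not measure a spread between replicates. They rest on the gap between the PBS pair and the Tbx6 pair and mostly on variance borrowed from other genes. That gap may be technical. Plots and counts used Python 3.11.15, numpy 2.4.6, pandas 2.3.3 and matplotlib 3.10.9.

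The genes and lists were chosen with earlier results of these data known. The text names those genes, up to 4 tested members per list with the largest changes between days, a few further pathway genes, the 3 nearest profiles of the 4 genes with the largest changes, and cell type markers. Precision is limited by the number of arrays. Alternatives were no filter, a filter above background, quantile normalisation, centring, limma's trend, 1 factor in the model, the mean over probe sets, each array left out, readings raised to background and a 2-fold rule.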

Additional observations from a re-analysis of the deposited data

Results flagged for a closer look

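In 4 genes the difference between injections had opposite signs at day 7 and day 30, with 1 array behind each reading, and the change of the difference was not tested. In Rb1 Tbx6 minus PBS went from 0.59 to -0.16, a shift of -0.751. In Cdk4 it went from 0.07 to -0.37, a shift of -0.445. In Cdkn1b it went from -0.19 to 0.16, a shift of 0.349. In Rbl2 it went from 0.19 to -0.10, a shift of -0.288. Over all tested genes 50.7% had opposite signs, and 4 of the 8 genes above background did.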

How the results depend on the processing

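The number of genes called between days was 2562, and 2233 to 2972 under the 7 alternatives, and 0 genes were called for injection under each of them. The falls of Ccnd3 (-1.22 to -1.17) and Cdkn1a (-1.89 to -1.88) kept their call under all 7, with adjusted p of 0.00182 to 0.0187 and 4.64e-05 to 0.00358. Cdk4 (-0.90 to -0.86) kept it under 6, with adjusted p of 0.0166 to 0.0709 over the 7. The 6 uncalled genes stayed uncalled in the alternatives that tested them, and Cdkn2c was not tested under the filter above background. With a 2-fold rule, 276 genes differed between injections at day 7, against 1525 at 1.5-fold, and 209 at day 30, against 1286. Leaving out 1 array leaves no residual degree of freedom and no test, and the remaining pair's difference was -2.16 to -1.61 for Cdkn1a, -1.18 to -1.16 for Ccnd3 and -1.08 to -0.63 for Cdk4. No paired analysis was possible because each group has 1 array and the labels give no replicate numbers. Signal over background limits Cdkn2c, Cdkn1c, Cdkn2a and Cdkn2b, for which no difference can be read.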
